A study of Mus musculus with 4 samples.

Results

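CTCF binding sites of mouse liver that were listed at both ZT0 and ZT12, and whose listed interval was at least 30 bp longer at ZT12, are described here. The pairs were selected on the widths of the listed intervals. A ZT0 site and a ZT12 site on an autosome formed a pair when they overlapped by at least 1 bp and neither overlapped another site of the other list. Of 5645 such pairs, 1030 were wider at ZT12 (18.2% of the pairs) and 3272 were narrower at ZT12 by at least 30 bp (58.0% of the pairs). The remaining 1343 pairs changed by less than 30 bp and are called little changed. Because the widths chose the pairs, these counts are a description of the rule and nothing was read from them. Over all pairs the median difference was -47 bp, so the ZT12 intervals were in general shorter. When each difference was taken relative to that median, 2045 pairs were wider and 2087 were narrower by at least 30 bp.

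The study asked how the folding of the genome changes over the day in mouse liver, and CTCF was mapped by ChIP-seq in the same tissue. Livers came from wild-type C57BL/6 males labelled as 8 weeks old. The methods give this as their age when they were placed in 12 h of light and 12 h of darkness, where they stayed for 2 weeks with free access to food. They were collected when the lights went on (ZT0) and when they went off (ZT12), with 2 biological replicates per time point and no treatment. Each time point has 1 list of peak positions for both replicates together. The lists hold 10113 sites at ZT0 and 6799 at ZT12 and are labelled as made after a motif scan. They are shorter than the set of sites that the study describes, so the pairs below stand for the listed sites, and their widths may depend on how the lists were made. The lists carry no score, read count or replicate, so the depth behind a site and the spread between replicates are unknown, and no marker gene can be read from them to check the tissue label. All intervals given below are 95% confidence intervals over pairs that cover counting error. They do not cover differences between animals.

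CTCF is a zinc finger protein that binds a long, directional DNA motif. It halts cohesin, the ring complex that extrudes chromatin loops, and many of its sites mark loop anchors and the borders of topologically associated domains. Most of its sites lie away from promoters and are occupied in many tissues, while sites next to promoters often lie in CpG-rich DNA. A peak is the stretch in which ChIP reads stand above background, so its width reflects the shape and the strength of the read signal as well as the caller.

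Among the wider pairs the median width was 280 bp at ZT0 and rose to 365 bp at ZT12. Their ZT0 widths lay between 125 and 860 bp and the ZT12 widths between 248 and 935 bp. Their median gain was 67 bp, with quartiles of 47 and 102 bp and a largest gain of 485 bp. In the narrower pairs the median went from 383.5 bp at ZT0 to 269 bp at ZT12, and in the little changed pairs from 300 to 299 bp. The wider pairs were therefore shorter than the narrower pairs at ZT0 and longer at ZT12, as the rule favours.

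Both edges of the interval contributed to the gain. The left edge moved outwards by a median of 39 bp and the right edge by 38 bp. Both edges moved outwards in 516 of the 1030 wider pairs (50.1%, 95% Wilson interval 47.0 to 53.1%), and in the other 514 a single edge did so. The ZT0 interval lay fully inside the ZT12 interval in 526 wider pairs (51.1%, 48.0 to 54.1%). In the rest an edge moved inwards, so the interval shifted as well as lengthened. Edges also moved in the little changed pairs, with quartiles of -31 and 30 bp on the left and -33 and 26 bp on the right. In 612 wider pairs (59.4%, 56.4 to 62.4%) one of the edges accounted for at least 90% of the gain. By arithmetic this count takes in all 514 pairs with a single outward edge, because that edge moved by at least the whole gain. Both edges moved inwards in 2130 of the 3272 narrower pairs (65.1%, 63.4 to 66.7%). Their median width difference of -95 bp was larger in size than the median gain of 67 bp. The shares of the wider and the narrower pairs were not matched for size and are not compared. Among the wider pairs, joint movement of both edges went with the size of the gain: it was seen in 34.2% (29.9 to 38.7%) of the 436 pairs that gained 30 to 59 bp, in 54.8% (49.3 to 60.1%) of the 323 that gained 60 to 99 bp and in 70.1% (64.4 to 75.2%) of the 271 that gained at least 100 bp. Edge movements add up to the width difference that the rule used, so these shares are again a description.

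The wider pairs were spread unevenly over the ZT0 widths, which the rule used. Split into 4 classes of about equal size, the class with the shortest ZT0 intervals, 125 to 288 bp, held 1421 pairs, of which 572 were wider (40.3%, 37.7 to 42.8%). In the class with the longest ZT0 intervals, 414 to 1031 bp, 64 of 1404 were wider (4.56%, 3.59 to 5.78%). Against the mean of both widths the share varied less, at 15.8% (14.0 to 17.8%), 19.5% (17.5 to 21.6%), 20.4% (18.4 to 22.6%) and 17.3% (15.4 to 19.4%) from the shortest to the longest class. The comparisons below take all pairs of a class together. Within 4 classes of the mean width, the difference from the narrower pairs was -2.96 points (-3.44 to -2.48) for GC content and -9.32 points (-12.0 to -6.67) for nearness to a start, which are described below for all pairs. The ZT12 list had a sharp lower edge, with 443 sites of 199 bp or up to 10 bp longer and 6 shorter sites, while 74 ZT0 sites were shorter than 199 bp. A ZT0 interval close to this edge could hardly be 30 bp narrower at ZT12. The shortest ZT0 interval was 235 bp in the narrower, 212 bp in the little changed and 125 bp in the wider pairs. The part of the lower edge in the choice of pairs was not tested.

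At the limit of the rule, 85 pairs gained 30 to 34 bp and 85 pairs gained 25 to 29 bp. Those just inside had median widths of 281 bp at ZT0 and 312 bp at ZT12, a mean GC content of 52.8%, and 16.5% of them within 1 kb of a transcription start. Those just outside had median widths of 276 and 302 bp, a mean GC content of 52.3%, and 12.9% of them near a transcription start. The limit therefore runs through a continuous range of widths.

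The 10 pairs with the largest gains grew by 268 to 485 bp. In the NCBIM37/mm9 annotation, 6 of them were intergenic, 3 were intronic and 1 was at a transcription start (within 1 kb), as were 16.2% of all wider pairs. The largest gain was at an intergenic site on chromosome 18, chr18:82886201-82887135 at ZT12, whose nearest protein-coding start is that of the zinc finger gene Zfp236, 24.5 kb away. It measured 450 bp at ZT0 and 935 bp at ZT12, with the left edge 486 bp further out. The next was an intergenic site 5.63 kb from the start of Il28b, an interferon lambda gene, at chr7:29313039-29313781, where the interval went from 313 to 743 bp through its right edge. An intron of Ctif, a translation initiation factor gene, held the third, at chr18:75766173-75766756, with 222 bp at ZT0 and 584 bp at ZT12. Each of these grew on a single side.

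A site in an intron of Ralgapa2, which encodes a subunit of a GTPase-activating complex for Ral, lay at chr2:146240488-146241137 and went from 318 to 650 bp, with 328 bp gained on the left. The intergenic site at chr1:88312484-88313393, with Nmur1 as the nearest protein-coding start at 28.2 kb, went from 592 to 910 bp and was the longest of the 10 at ZT0. Nmur1 encodes a receptor for the peptide neuromedin U. The intron of Kcnip1, a potassium channel-interacting protein gene, held a site at chr11:33817574-33818110 that went from 222 to 537 bp. Its edges moved outwards by 130 bp on the left and 185 bp on the right. Near Lfng, whose product is a glycosyltransferase that modifies Notch receptors, the intergenic interval chr5:141095264-141095784 went from 215 to 521 bp, with 173 bp gained on the left and 133 bp on the right.

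Further members of the 10 also grew on both sides. The intergenic site at chr9:106545373-106546001, 12.8 kb from the start of the glutamate receptor gene Grm2, went from 359 to 629 bp. The intergenic site at chr14:44390084-44390615, 6.95 kb from the start of the ribonuclease gene Ear1, went from 263 to 532 bp. The left and right edges moved outwards by 98 and 172 bp at the Grm2 site and by 95 and 174 bp at the Ear1 site. Among the 10, both edges moved outwards at 7 sites.

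The wider pairs lay at transcription starts less often than the narrower pairs. A start within 1 kb of the midpoint of the joined interval was annotated for 167 of the 1030 wider pairs (16.2%, 95% Wilson interval 14.1 to 18.6%) and for 854 of the 3272 narrower pairs (26.1%, 24.6 to 27.6%). The difference was -9.89 percentage points (95% Newcombe interval -12.5 to -7.09). Within 5 kb it was -8.00 points (-11.4 to -4.55). With a limit of 100 bp for the width it was -17.35 points (-21.28 to -12.53), and within 4 classes of GC content it was -2.69 points (-5.06 to -0.331). The little changed pairs held 18.3% (16.3 to 20.5%) near starts, and the wider pairs differed from them by -2.10 points (-5.13 to 0.987), which includes 0. The share of the narrower pairs thus stood above that of both other classes.

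Introns held 324 wider pairs (31.5%, 28.7 to 34.4%), 26.3% of the narrower and 32.8% of the little changed pairs. The wider pairs differed from the narrower pairs by 5.11 points (1.95 to 8.37) and from the little changed pairs by -1.38 points (-5.15 to 2.42). Intergenic sequence held 490 wider pairs (47.6%, 44.5 to 50.6%), with differences of 5.34 points (1.86 to 8.82) from the narrower and 4.01 points (-0.0265 to 8.04) from the little changed pairs. These shares are of all pairs, so they move with the share at starts. Among the pairs over 1 kb from a start, a comparison added after the data were seen, introns held 37.5% of the 863 wider and 35.6% of the 2418 narrower pairs, a difference of 1.89 points (-1.82 to 5.68). Intergenic sequence held 56.8% and 57.2%, a difference of -0.376 points (-4.24 to 3.45). Away from starts, a difference between the wider and the narrower pairs was therefore not detectable in either. Exons away from starts held 49 wider pairs (4.76%, 3.62 to 6.23%), and the difference from the narrower pairs over all pairs, -0.561 points (-1.97 to 1.08), included 0. Sites more than 100 kb from any start were equally rare, with 2.72% of the wider and 2.75% of the narrower pairs. Among the wider pairs themselves, the share near a start was 17.4% (14.2 to 21.3%) for gains of 30 to 59 bp, 18.9% (14.99 to 23.5%) for 60 to 99 bp and 11.1% (7.87 to 15.4%) for at least 100 bp.

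Among the 5 wider pairs with the largest gains at starts, 4 are described. At Mad2l2, which encodes a subunit of the translesion DNA polymerase zeta, the site chr4:147514120-147514622 lay 0.08 kb from the start and went from 239 to 503 bp. At Ppip5k1, an inositol pyrophosphate kinase gene, the site chr2:121180909-121181405 lay 0.025 kb from the start and went from 274 to 497 bp, with a GC content of 64.0%. Both grew outwards at each edge, Mad2l2 by 120 and 144 bp and Ppip5k1 by 126 and 97 bp.

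The other pair of sites at starts grew nearly on the right alone. The site chr11:115760151-115760642 lies inside Recql5, a DNA helicase gene, 0.883 kb from the start of 2210020M01Rik. It went from 271 to 492 bp, with 12 bp from the left edge and 209 bp from the right. The site chr10:75414490-75414888 lies 0.288 kb from the start of AC134382.1 and 2.57 kb from that of Gm5134. It went from 233 to 399 bp, with 18 bp from the left edge and 148 bp from the right.

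The DNA under the wider pairs was poorer in G and C. In 200 bp around the joined midpoint the mean GC content was 53.0% (SD 6.89) in the 1030 wider pairs, 54.2% (SD 7.42) in the little changed pairs and 56.1% (SD 8.10) in the narrower pairs. The wider pairs were lower than the narrower pairs by a mean difference of -3.13 percentage points (95% interval -3.63 to -2.62) and differed from the little changed pairs by -1.23 points (-1.81 to -0.652). A GC content of at least 60% was found in 125 wider pairs (12.1%, 10.3 to 14.3%) and in 26.3% (24.8 to 27.8%) of the narrower pairs. Over 1000 bp the difference from the narrower pairs was -2.52 points (-2.93 to -2.12).

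Read the other way, the share of wider pairs fell along 4 classes of the GC content of all pairs. In the class with 31 to 50% GC, 348 of 1455 pairs were wider (23.9%, 21.8 to 26.2%). The following classes held 20.8% (18.8 to 23.0%) and 17.0% (15.1 to 19%). In the class with 59.5 to 86% GC, 142 of 1330 pairs were wider (10.7%, 9.13 to 12.5%). GC content was not used by the rule, and the share was lower in each class than in the one before.

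The CpG ratio, the number of CpG dinucleotides over that expected from the C and G content, was lower as well. Its mean was 0.353 in the wider, 0.368 in the little changed and 0.433 in the narrower pairs. The wider pairs differed from the narrower pairs by -0.0794 (-0.0973 to -0.0615) and from the little changed pairs by -0.0141 (-0.0346 to 0.00639), which includes 0. With a limit of 100 bp the difference from the narrower pairs was -0.1275 (-0.1572 to -0.09784). Over 1 kb from a start it was -0.0454 (-0.0627 to -0.0282), and there both the wider and the little changed pairs had a mean of 0.312. DNA with at least 60% GC and a CpG ratio of at least 0.6, as in many CpG islands, lay under 77 wider pairs (7.48%, 6.02 to 9.24%) and under 18.2% (16.9 to 19.6%) of the narrower pairs.

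GC content and nearness to a start go together, so each was compared at matched values of the other. Among pairs within 1 kb of a start, the 167 wider pairs had a mean GC content of 59.3% and the 854 narrower pairs 62.6%, a difference of -3.29 points (-4.74 to -1.83). Among pairs farther away, the 863 wider pairs had 51.8% and the 2418 narrower pairs 53.9%, a difference of -2.07 points (-2.53 to -1.61). The lower GC content was thus present on both sides of the limit. Conversely, within 4 classes of GC content the difference in the share near starts shrank from -9.89 to -2.69 points (-5.06 to -0.331). From the lowest class up, 7.47% (5.15 to 10.7%) of the wider and 8.25% (6.44 to 10.5%) of the narrower pairs lay near a start at 31 to 50% GC. At 50.5 to 54% GC the shares were 8.03% (5.45 to 11.7%) and 14.2% (11.9 to 16.8%), and at 54.5 to 59% GC they were 15.4% (11.3 to 20.4%) and 17.3% (14.9 to 19.97%). In the class with 59.5 to 86% GC, 56.3% (48.1 to 64.2%) of the wider and 57.7% (54.5 to 60.9%) of the narrower pairs did so. The gap was widest in the class with 50.5 to 54% GC, and its size was not compared between classes by a test.

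The CTCF motif was then searched for on both strands of the joined intervals. The search started from the 12 bases most over-represented in the listed sites, which occurred in 44 of the wider pairs (4.27%, 3.20 to 5.69%), in 5.01% (4.32 to 5.81%) of the narrower pairs, and in 0 wider and 1 narrower of the regions of the same length 5 kb away. A weight matrix of 20 positions was built from there, once from the odd-numbered chromosomes and once from the rest, and each matrix scored the chromosomes it was not built from. Both matrices had the same most frequent base at each position, and the consensus is shown because all matches below are read against it.
starting 12 bases: ccaccagggggc
matrix consensus: GTGGCCACCAGGGGGCGCCA

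The lists are labelled as the peaks after a motif scan, so the share of pairs with a motif may be set by how the lists were made, and it is given as a description. With matches called at a p of 0.0001 for each position, 1025 wider pairs held at least 1 (99.5%, 98.9 to 99.8%), as did 99.4% (99.1 to 99.6%) of the narrower pairs. In regions of the same length 5 kb away, a match occurred for 15.9% (13.8 to 18.3%) of the wider and 19.3% (18.03 to 20.7%) of the narrower pairs. At the stricter p of 0.00001 the shares were 90.7% (88.7 to 92.3%) and 91.6% (90.6 to 92.5%), with a difference of -0.885 points (-3.02 to 1.03). The score of the best match, in log-odds units, had a mean of 17.4 (SD 5.19) in 200 bp around the midpoint of the wider pairs and 17.3 (SD 5.43) in the narrower pairs. That difference, 0.0582 (-0.309 to 0.426), included 0, but the call depended on the setting. Around the median difference of all pairs it was 0.5665 (0.2442 to 0.8888), and with limits of 60 and 100 bp it was -0.07575 and -0.3297, with intervals that included 0. The little changed pairs had a mean of 17.8 (SD 4.32), and the wider pairs differed from them by -0.448 (-0.840 to -0.0563). In the whole joined interval that last difference was 0.00993 (-0.287 to 0.307), so it depended on the window.

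The 5 wider pairs without a match, which were singled out after their values had been seen, were found near several genes. Of these, 4 are described. The pair in an intron of Asap3 grew by 124 bp with a best score of 5.87. The pair 3.53 kb from the start of the liver pyruvate kinase gene Pklr grew by 117 bp with a best score of 6.15. The pairs nearest to Ripk4, a kinase gene, and Vkorc1, the vitamin K epoxide reductase gene, grew by 39 and 30 bp. At 1 further pair, in an exon of Unc119b, the ZT0 interval held no match and the ZT12 interval held 1.

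A single match was the usual state. In 795 wider pairs (77.2%, 74.5 to 79.6%) both the ZT0 and the ZT12 interval held 1 match. The joined interval held 2 or more matches in 230 wider pairs (22.3%, 19.9 to 24.97%), in 22.6% (20.4 to 24.9%) of the little changed and in 27.4% (25.9 to 28.9%) of the narrower pairs. The wider pairs differed from the narrower pairs by -5.05 points (-7.94 to -2.01), by -9.10 points (-14.24 to -3.306) with a limit of 100 bp and by -2.78 points (-4.56 to -0.797) at the stricter p. In the 200 bp around the midpoint, where every pair has the same length of sequence, the difference was -2.21 points (-4.43 to 0.207), which includes 0. Within 4 classes of the mean width it was -3.83 points (-6.66 to -0.991), which does not include 0. In the same 200 bp the wider pairs differed from the little changed pairs by -2.88 points (-5.59 to -0.0925), while in the joined interval that difference was -0.231 points (-3.59 to 3.18). In regions of the same length 5 kb away, the share with a match was lower for the wider than for the narrower pairs. That difference was -3.42 points (-5.95 to -0.720).

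The bases that were listed at ZT12 and not at ZT0 seldom held a motif. In the wider pairs these bases came to 100411, and 48 matches were centred in them, or 0.478 per kb. A match was counted here by its centre, whereas an interval is said to hold a match when all 20 bases lie inside it, so a match across an edge can count in one way and not in the other. The joined intervals of the wider pairs held 3.25 matches per kb and the regions 5 kb away 0.479 per kb. The gained bases thus carried matches at about the density of the regions 5 kb away. In the narrower pairs the bases listed at ZT0 and not at ZT12 held 276 matches in 398145 bases, or 0.693 per kb, against 0.569 per kb at 5 kb.

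Gained matches were found in a small part of the wider pairs. The ZT12 interval held more matches than the ZT0 interval in 50 of them (4.85%, 3.70 to 6.34%), against 1.65% of all pairs, 1.79% of the little changed and 0.581% of the narrower pairs. It held fewer in 0.680% of the wider and 8.22% of the narrower pairs. The rule sets which interval is the longer, so these shares are a description. The share with more matches at ZT12 was 3.44% (2.10 to 5.60%) for gains of 30 to 59 bp. It was 4.02% (2.37 to 6.76%) for gains of 60 to 99 bp and 8.12% (5.42 to 12.0%) for gains of at least 100 bp. A longer added stretch can hold more matches by its length alone, and the share was not corrected for it. Of the 10 pairs with the largest gains, 5 held more matches at ZT12.

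The matches at 3 of these 5 sites are shown as examples of an interval that took in a further match. Each is written in capitals throughout, 5′ to 3′ on the strand of the match, with mm9 coordinates. At the Il28b site the match inside both intervals was chr7:29313163-29313182 on the minus strand with a score of 16.95, and the added one was chr7:29313622-29313641, also on the minus strand, with a score of 17.65 and a centre 311 bp outside the ZT0 interval. In the Ralgapa2 intron the shared match was chr2:146240953-146240972 on the minus strand with a score of 18.45. The better of the added matches there was chr2:146240580-146240599 on the minus strand with a score of 15.36, 226 bp outside. At the Lfng site the shared match was chr5:141095569-141095588 on the minus strand with a score of 20.15, and the added one was chr5:141095285-141095304 on the minus strand with a score of 16.67, 142 bp outside.
Il28b, both intervals: CCCGCCGCCAGGGGGAGCCT
Il28b, ZT12 interval: ATGGCCAACAGAGGGCAGAG
Ralgapa2, both intervals: CGTGCCAGCAGAGGGAGCCC
Ralgapa2, ZT12 interval: CATCCCACCAGATGGCGATG
Lfng, both intervals: GTGGCCACCAGGCGGCAGCC
Lfng, ZT12 interval: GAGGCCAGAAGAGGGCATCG

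The Kcnip1, Grm2 and Ear1 sites gained 315, 270.0 and 269 bp with 1 match in both intervals. Their matches are shown as the contrast to the sites above, on the minus strand in each case. The Kcnip1 match was chr11:33817761-33817780 with a score of 24.01 and the Grm2 match chr9:106545688-106545707 with 22.54. The Ear1 match was chr14:44390312-44390331 with 18.45. The intervals of these sites became longer around a match that was already inside at ZT0.
Kcnip1: ATGACCAGCAGAGGGCGCCA
Grm2: CTCACCAGTAGAGGGCGCCA
Ear1: GCCGCCACTAGATGGTGCTA

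To show whole intervals, the 6 wider pairs with the highest motif scores were taken among the 127 that had a ZT12 interval of at most 300 bp and a match, overlapped no exon and met the rule for printed sequences. Each ZT12 interval is written 5′ to 3′ on the plus strand of mm9, with the bases of the motif match in capitals. The Megf11 site, in an intron of a gene for a transmembrane protein with EGF-like domains, is chr9:64241966-64242262. It went from 222 to 297 bp and its match on the plus strand scored 26.2. The Paqr9 site, chr9:95440961-95441259, is intergenic and went from 245 to 299 bp with a plus-strand match of 25.9. The intergenic site chr9:40424575-40424866, with 9030425E11Rik as the nearest protein-coding start, went from 259 to 292 bp with a plus-strand match of 24.2. The site nearest to Zfp157, chr5:138914903-138915188, is intergenic and went from 230.0 to 286 bp with a plus-strand match of 24.1. The Dlx2 site, chr2:71385895-71386192, is intergenic, 1.23 kb from the start of that homeobox gene. It went from 229 to 298 bp with a minus-strand match of 24.0, so the capitals show the reverse complement of the motif. The Myom2 site, chr8:15138606-15138873, is intergenic and went from 238 to 268 bp with a plus-strand match of 24.0. Each of the 6 held 1 match, which lay inside the interval at both time points.
Megf11: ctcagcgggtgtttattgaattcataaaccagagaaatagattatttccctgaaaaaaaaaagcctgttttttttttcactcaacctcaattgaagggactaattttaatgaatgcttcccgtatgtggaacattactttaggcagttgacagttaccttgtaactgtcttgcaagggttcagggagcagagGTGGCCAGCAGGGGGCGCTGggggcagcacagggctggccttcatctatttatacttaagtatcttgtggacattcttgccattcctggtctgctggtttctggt
Paqr9: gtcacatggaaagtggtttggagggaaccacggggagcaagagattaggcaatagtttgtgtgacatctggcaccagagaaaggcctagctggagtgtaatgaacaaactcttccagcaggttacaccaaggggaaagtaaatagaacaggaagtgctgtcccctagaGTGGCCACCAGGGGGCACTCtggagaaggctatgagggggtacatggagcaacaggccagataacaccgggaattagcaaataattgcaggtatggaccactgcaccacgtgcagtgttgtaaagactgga
9030425E11Rik: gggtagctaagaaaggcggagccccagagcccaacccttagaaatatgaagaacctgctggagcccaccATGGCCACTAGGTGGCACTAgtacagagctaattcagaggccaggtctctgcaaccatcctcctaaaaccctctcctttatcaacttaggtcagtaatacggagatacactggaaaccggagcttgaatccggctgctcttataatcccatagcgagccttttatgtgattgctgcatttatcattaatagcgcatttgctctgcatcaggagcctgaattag
Zfp157: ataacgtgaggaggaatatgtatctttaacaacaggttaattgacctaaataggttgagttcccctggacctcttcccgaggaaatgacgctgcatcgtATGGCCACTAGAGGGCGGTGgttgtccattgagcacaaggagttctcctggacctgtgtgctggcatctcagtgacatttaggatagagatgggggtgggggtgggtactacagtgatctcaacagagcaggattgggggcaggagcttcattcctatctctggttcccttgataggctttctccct
Dlx2: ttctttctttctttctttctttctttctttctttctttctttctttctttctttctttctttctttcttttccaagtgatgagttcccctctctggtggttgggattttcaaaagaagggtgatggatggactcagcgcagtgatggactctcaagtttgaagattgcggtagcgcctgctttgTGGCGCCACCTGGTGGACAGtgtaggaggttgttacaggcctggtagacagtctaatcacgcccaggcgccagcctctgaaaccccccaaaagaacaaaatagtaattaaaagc
Myom2: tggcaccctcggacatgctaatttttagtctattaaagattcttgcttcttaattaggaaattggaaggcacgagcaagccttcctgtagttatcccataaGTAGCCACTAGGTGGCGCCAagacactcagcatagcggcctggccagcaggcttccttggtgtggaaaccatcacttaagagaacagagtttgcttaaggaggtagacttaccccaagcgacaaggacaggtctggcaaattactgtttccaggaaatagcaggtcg

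The motif has a direction, so the edges could be named by it. In the wider pairs the 3′ side of the best match gained a median of 42 bp and the 5′ side 33 bp. The 3′ side gained more in 542 of 1022 pairs with unequal movements (53.0%, 49.97 to 56.1%). This interval includes 50%, but it did not when overlap of 50% of both sites was required (53.27%, 50.16 to 56.36%) or when the differences were taken around their median (52.69%, 50.51 to 54.85%). The interval included 50% with limits of 15, 60 and 100 bp. The same held for a relative limit of 10% and for edge shifts differing by at least 20 bp. The call therefore depended on the setting. In the narrower pairs the 3′ edge moved inwards further than the 5′ edge in 1537 of 3244 (47.4%, 45.7 to 49.1%). Their median change was -48 bp on the 3′ side and -54 bp on the 5′ side. In the little changed pairs it was 1 bp on the 3′ side and -3 bp on the 5′ side, so the medians leaned the same way in each class. The best match lay on the plus strand in 48.7% (45.6 to 51.7%) of the wider pairs.

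At ZT0 the intervals of the wider pairs were nearly symmetrical around the match. They reached a median of 140 bp to its 3′ side and 143 bp to its 5′ side. At ZT12 they reached 183 bp to the 3′ side and 181 bp to the 5′ side. In the narrower pairs the reach fell from 189 and 191 bp at ZT0 to 141 and 136 bp at ZT12. The ZT12 reach of the wider pairs was thus close to the ZT0 reach of the narrower pairs, both values being tied to the rule.

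Genes of the clock and of the liver were searched for wider pairs inside them or within 10 kb. A pair found in this way can lie inside another gene or nearer to its start. Of 100 genes on 8 lists, 97 were in the annotation, 29 had any pair, 7 had a wider pair and 14 had a narrower pair. Of all 21281 autosomal protein-coding genes in the annotation, 22.9% had any pair, 4.76% a wider pair and 14.8% a narrower pair by the same rule. Among the 4875 with any pair, 20.8% had a wider and 64.7% a narrower pair. Whether a list differs from these shares was not tested. Among the 12 core clock genes, 2 had any pair, 1 had a wider pair and 0 a narrower pair. Rora, a nuclear receptor that activates Arntl, held an intronic site at chr9:69215927-69216219 that went from 249 to 293 bp. Among the clock output genes, 0 had a wider or a narrower pair and 2 had a little changed pair.

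Of the 17 liver transcription factor genes, 7 had any pair, 1 had a wider pair and 6 had a narrower pair. Cebpb, a bZIP factor of liver metabolism, was counted under both. Its wider pair, chr2:167510681-167510998, lies 3.58 kb from its start in an intron of Tmem189 and went from 286 to 318 bp. Its start itself lies 0.133 kb from a narrower pair, chr2:167514050-167514268, which went from 536 to 219 bp. A second narrower pair 8.71 kb from the start went from 533 to 374 bp. Neighbouring CTCF sites of 1 gene therefore fell in opposite classes. Cebpa, Foxa1, Foxa3 and Hnf4a were among the other factor genes with narrower pairs. The Foxa3 pair lies in an exon of Irf2bp1.

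In the glucose list, 3 of 12 genes had any pair, 2 had a wider pair and 1, Fbp1, had a narrower pair. The Fbp1 pair lies in an intron of Fbp2, 31.8 kb from the Fbp1 start. Pklr, the liver pyruvate kinase gene, had an intergenic site at chr3:88936347-88936725 that went from 262 to 379 bp, with 116 bp gained on the right and a CpG ratio of 0.641. Pygl, which encodes liver glycogen phosphorylase, had an intergenic site at chr12:71336159-71336519, 3.86 kb from its start. That interval went from 269 to 361 bp. Both sites lie outside the gene they were assigned to.

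In the list of 13 lipid and bile acid genes, 12 were in the annotation. Of these, 5 had any pair, 1 had a wider pair and 2, Acaca and Fasn, had narrower pairs. The Fasn pair is intergenic, 24.0 kb from the Fasn start and nearer to that of Dus1l. Srebf1, a regulator of fatty acid synthesis, held an exonic site at chr11:60013140-60013550 that went from 362 to 411 bp. Among the genes for CTCF and cohesin, 5 of 8 had any pair, 2 had a wider pair and 2, Pds5b and Stag1, had narrower pairs. Pds5a, a cohesin regulator, had a site 0.941 kb from its start, chr5:66088003-66088335, that went from 300 to 333 bp. Smc3, a core subunit of the cohesin ring, had an intergenic site at chr19:53723265-53723529 that went from 215 to 265 bp. Of the 16 plasma protein genes, 0 had a wider pair and 1, Fgg, had a narrower pair. Of the 15 imprinted genes, 14 were in the annotation, 0 had a wider pair and 2, Grb10 and Nnat, had narrower pairs. The Nnat pair lies outside that gene, 0.468 kb from the start of Blcap.

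The wider pairs were not set apart by the distance to other sites. Another ZT0 site lay within 10 kb of 283 wider pairs (27.5%, 24.8 to 30.3%) and of 29.2% (27.7 to 30.8%) of the narrower pairs, a difference of -1.74 points (-4.82 to 1.46) that included 0. The median distance to the nearest other ZT0 site was 29008 bp for the wider and 26502 bp for the narrower pairs. The nearest other pair was itself wider for 204 wider pairs (19.8%, 17.5 to 22.4%), for 15.7% (13.9 to 17.8%) of the little changed and for 18.2% (16.9 to 19.5%) of the narrower pairs. Where that neighbour lay within 10 kb, it was wider for 40 of 197 wider pairs (20.3%, 15.3 to 26.5%) and for 120 of 642 narrower pairs (18.7%, 15.9 to 21.9%). Whether these shares differ was not tested.

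Wider pairs were found on each of the 19 autosomes. They made up from 15.6% (12.1 to 19.9%) of the 327 pairs on chromosome 1 to 22.01% (16.9 to 28.1%) of the 209 pairs on chromosome 14. The interval of each autosome included the 18.2% of all pairs. The highest count was on chromosome 11, with 101 wider pairs among 527. On chromosome 13 the median difference of all pairs was -29 bp, with 21.3% (16.0 to 27.8%) wider and 49.7% (42.6 to 56.9%) narrower. The interval of its narrower share lies below the 58.0% of all pairs, and whether this chromosome differs from the others was not tested.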

How the data were processed

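CTCF ChIP-seq of mouse liver was used, with 2 replicates at each of 2 time points. According to the submitters' processing notes and the methods, the authors aligned reads to NCBIM37/mm9 (Bowtie2), kept those of high mapping quality (SAMtools), dropped duplicates (Picard) and ran MACS2 for the peaks. The deposited unit is a position: chromosome, start and end of each site, in 1 list per time point labelled as both replicates after FIMO. How FIMO and the replicates were combined is not given in the sources used here. The members and gene lists were chosen with earlier results of these data known.

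Shares carry 95% Wilson intervals, differences of shares Newcombe intervals and differences of means normal intervals over pairs. No p-value was computed, since values by replicate were not possible. The weight matrix started from the most over-represented 12 bases, with 4 bases added on each side and 3 rounds of refinement. Sequence came from the NCBIM37 genome and starts, exons and introns from GENCODE for that build. That genome is not soft-masked, so the share in repeats was not computed.

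Genes are named for the 10 largest gains, the 5 largest within 1 kb of a start, and every wider pair inside or within 10 kb of genes on 8 lists. Some of these are not reported here. The 6 whole intervals printed have the highest motif scores among wider pairs of at most 300 bp at ZT12 without exon overlap, leaving out chromosome 18. Other limits on width and overlap, other windows and other classes were tried. Classes and motif calls were tested on simulated data. Python 3.11.15, NumPy 2.4.6, pandas 2.3.3, SciPy 1.17.1 and pysam 0.24.0 were used.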

Additional observations from a re-analysis of the deposited data

How the results depend on the processing

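No paired analysis was possible because replicates are merged in each list, and leaving out replicates and the share in repeats were not run for want of values. In 70 of 103 values under an alternative, the direction and the side of the interval or the size were kept. The mean GC difference from the narrower pairs stayed between -4.50 and -2.07 points, and the difference in the share near starts between -17.35 and -2.69 points. Limits of 15, 60 and 100 bp moved the median gain to 55, 95 and 137 bp by construction. The wider pairs then numbered 594 at 60 bp and 271 at 100 bp, and the narrower pairs 1566 at 100 bp. Around the median difference of all pairs there were 2045 wider and 2087 narrower pairs, and the median gain was 30 bp.

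The share with more bases gained on the 3′ side was 53.27% with 50% overlap of both sites and 52.69% around the median difference, where the interval no longer included 50%. With the other settings its interval included 50%. The difference in the share with a motif match reversed to -0.4046 points at 100 bp and -0.8852 points at the stricter p. The difference in 2 or more matches was -2.209 points in 200 bp, where its interval included 0. Within 4 classes of mean width it was -3.827 points (-6.664 to -0.9905). The difference in best score reversed to -0.07575 at 60 bp, -0.3297 at 100 bp, -0.0252 with 50% overlap, -0.02116 within classes of mean width and -0.1615 in the joined interval, and was 0.5665 (0.2442 to 0.8888) around the median difference. The share with another site within 10 kb was 21.26% when ZT12 sites were counted.

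The lowest share of wider pairs on an autosome was 20.07% at 15 bp, 7.104% at 60 bp, 2.632% at 100 bp and 30.66% around the median difference. The highest was 15.79% at 60 bp, 9.091% at 100 bp and 44.81% around the median difference.

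Some alternatives were chosen after seeing the data: pairs over 1 kb from a start, classes of GC content, the CpG ratio, the stricter p for 2 matches, and little changed pairs as the other class. Against the little changed pairs, the differences were -0.1131 points for a match and -0.4484 for the best score, which reversed, and -0.2313 points for 2 matches, -0.01409 for the CpG ratio and -2.104 points for starts, with intervals that included 0 for each of these 3. The cause was not tested in any of these cases.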

Other observations

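On chromosome X, which the rule leaves out, 20 pairs were formed, of which 2 were wider and 13 narrower by at least 30 bp. Both wider pairs lay at transcription starts. The site chrX:99384646-99384912, 0.041 kb from the start of the ribosomal protein gene Rps4x, went from 233 to 267 bp. The site chrX:155970253-155970642, 0.145 kb from the start of A830080D01Rik, went from 358 to 390 bp. They are given as values, since 20 pairs allow no comparison with the autosomes.

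On the autosomes, 24 overlaps were not between a single ZT0 site and a single ZT12 site and were left out. Equal widths at both time points were listed for 23 pairs. A gain of exactly 30 bp was found for 13 pairs and of exactly 29 bp for another 13.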
